A study of Mus musculus with 108 samples.

Results

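The reporter fragments examined here lie in and around 3 genes that the study named, Bmper, Nrros and Dok2, out of 21924 protein-coding genes given a window in the same way. A fragment belonged to a gene when it overlapped the gene body or the 100 kb on either side, in GENCODE gene models on mm10, so the choice used position and not the reporter readout. HM-1 mouse embryonic stem cells, a line without functional HPRT, carried open-chromatin fragments, each cloned upstream of the HSP68 minimal promoter and a Venus-YFP gene, at the Hprt locus. They were taken as ES cells (ES), FLK1+ hemangioblasts (HB), hemogenic endothelium that was KIT+ TIE2+ CD41- (HE1) or KIT+ TIE2+ CD41+ (HE2), and KIT+ TIE2- CD41+ hematopoietic progenitors (HP). All stages derived in culture from that 1 line. YFP fluorescence divided each stage into 4 gates in replicates 1 to 4 (Negative, Low, Medium, High) and into 3 in replicate 5 (Negative, Low, Medium/High), which gave 95 libraries. Whether the replicates were separate cultures is not given in the labels, so the spread between them may be partly technical.

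A reporter screen of this kind asks whether a piece of DNA, taken out of its own locus, can raise the activity of a minimal promoter in a given cell type. Distal fragments that do so are candidate enhancers of a gene nearby, and a promoter fragment can act in the same position. BMPER is a secreted protein that binds bone morphogenetic proteins (BMPs) outside the cell and tunes their signal, with known roles in endothelial cells. NRROS, also called LRRC33, is a leucine-rich repeat membrane protein of myeloid cells that holds latent TGF-beta1 at the cell surface and limits NADPH oxidase. DOK2 is an adaptor that docks on activated tyrosine kinases, TIE2 among them, and restrains Ras signaling in blood cells.

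Each sorted library was deposited as a list of fragments without read numbers, so 1 listing is 1 fragment on the list of 1 library. Libraries of replicates 1 and 2 listed 15627 to 131091 fragments and those of replicates 3 to 5 listed 504 to 20729. As a result, 91.6% of all listings came from replicates 1 and 2, and 95.3%, 86.8% and 90.7% of those around Bmper, Nrros and Dok2. Before any result, 4 HE1 libraries have to be set apart. Negative replicate 1 shared 78.5% of the fragments of Medium replicate 2, and 83.0% of the fragments of Negative replicate 3 were also listed in Low replicate 4. The first pair shared 6 fragments around Bmper, 18 around Nrros and 5 around Dok2. The HE1 window test and the test over all stages are given with and without the 4 libraries. HE1 counts of the Bmper promoter and of named distal sites are given both ways where they changed. The HE1 site test and the contrasts of neighbouring stages are given with the 4 libraries only. So are the comparison of gates, pooled HE1 values per 10000 and HE1 counts at promoter sites of, or shared with, neighbouring genes.

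The 3 windows differed in what else they held. Bmper (ENSMUSG00000031963, chr9:23223076-23485200, plus strand) is a long gene with no other annotated gene in its 462.1 kb window. Nrros (ENSMUSG00000052384, chr16:32142785-32165594, minus strand) had 9 annotated neighbours in 222.8 kb, 6 of them protein-coding. Dok2 (ENSMUSG00000022102, chr14:70766036-70778495, plus strand) shared its 212.5 kb window with 3 genes, of which Xpo7, encoding a nuclear transport receptor, starts next to the upstream end of the Dok2 model.

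Around Bmper there were 214 listings of 90 distinct fragments, 44 of them distal, meaning more than 1.5 kb from a transcription start by the study's split. Around Nrros there were 506 listings of 259 distinct fragments, and 24 of the 259 were distal. Around Dok2 there were 237 listings of 123 distinct fragments, with 41 distal. Distal fragments thus made up 48.9%, 9.27% and 33.3% of the distinct fragments, beside 33.6% in the whole screen. Most of the Nrros listings lay at promoters of its neighbours.

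Overlapping fragments were merged into sites, separately for distal and promoter fragments. The Bmper window held 11 distal sites and 1 promoter site, the Nrros window 9 and 5, and the Dok2 window 6 and 2. The map of sites along the genes shows that a few of them held nearly all listings.

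**Figure D1:**
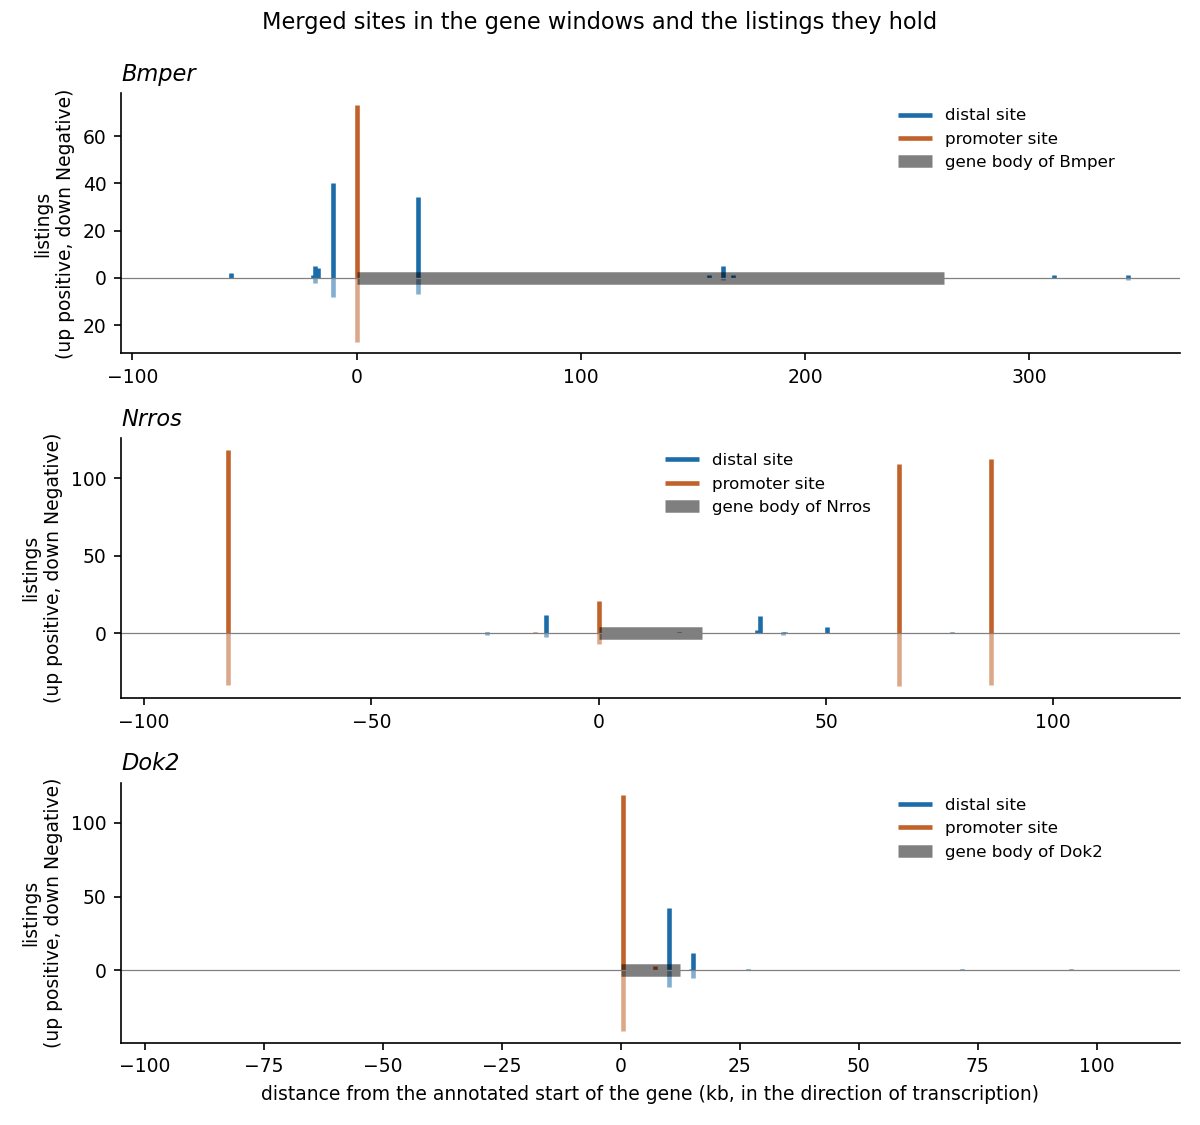
Listings at each merged site (y axis, counts over all 95 libraries; up for the Low, Medium, High and Medium/High gates together, down for the Negative gate) against the distance of the site's centre from the annotated start of the gene (x axis, kb, in the direction of transcription). Around Bmper, 3 sites held 100, 48 and 41 of the 214 listings, while the tallest lines around Nrros are promoters of its neighbours.

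The reporter inserts themselves show what was tested. For each named distal site with at least 7 listings, the fragment listed in the largest number of libraries is printed below from the GRCm38 reference (the assembly of mm10), plus strand, 5′ to 3′. Ties went to the fragment with the lower start coordinate, and the other tied fragments of Bmper −18.6 kb, Bmper −10.5 kb and Nrros −11.6 kb are not shown. For the Dok2 site inside the gene, both tied fragments are given. Each site is named by its distance from the annotated gene start. Capitals mark matches, on either strand, to any of 10 motifs: AGATAA for GATA factors, AGGAAG for ETS factors, TGTGGT for RUNX factors, CAGCTG as the E-box, TGANTCA for AP-1, GGAATG for TEAD factors, GTCTAGAC for SMAD proteins, ATGCAAAT for OCT factors, GTGGGAA for RBPJ and TTGCGCAA for C/EBP factors.
Bmper −18.6 kb, chr9:23204385-23204504: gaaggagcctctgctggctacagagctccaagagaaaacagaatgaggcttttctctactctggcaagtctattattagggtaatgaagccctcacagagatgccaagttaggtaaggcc
Bmper −10.5 kb, chr9:23212466-23212633: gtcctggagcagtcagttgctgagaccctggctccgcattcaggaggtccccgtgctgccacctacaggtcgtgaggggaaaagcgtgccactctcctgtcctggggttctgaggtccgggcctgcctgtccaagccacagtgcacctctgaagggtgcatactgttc
Bmper +27.2 kb, chr9:23250192-23250304: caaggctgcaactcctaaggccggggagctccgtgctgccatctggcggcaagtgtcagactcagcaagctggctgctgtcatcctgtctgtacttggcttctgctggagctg
Nrros +35.4 kb, chr16:32130223-32130319: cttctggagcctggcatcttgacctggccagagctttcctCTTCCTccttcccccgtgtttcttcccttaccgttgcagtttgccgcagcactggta
Nrros −11.6 kb, chr16:32177082-32177284: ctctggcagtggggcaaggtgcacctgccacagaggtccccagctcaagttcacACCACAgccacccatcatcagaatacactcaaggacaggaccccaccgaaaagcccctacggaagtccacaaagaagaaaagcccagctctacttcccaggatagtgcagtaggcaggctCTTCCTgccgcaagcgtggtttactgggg
Dok2 +10.2 kb, chr14:70776099-70776252: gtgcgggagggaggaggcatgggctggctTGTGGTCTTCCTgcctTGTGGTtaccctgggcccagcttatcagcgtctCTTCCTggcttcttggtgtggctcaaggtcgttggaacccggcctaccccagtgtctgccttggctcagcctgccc
Dok2 +10.2 kb, chr14:70776239-70776343: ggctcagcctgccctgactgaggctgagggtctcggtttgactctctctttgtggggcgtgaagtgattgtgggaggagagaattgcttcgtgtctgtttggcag
Dok2 +15.2 kb, chr14:70780915-70781001: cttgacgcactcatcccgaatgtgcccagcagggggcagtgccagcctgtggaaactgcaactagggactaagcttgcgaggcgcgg

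The printed inserts were 87 to 203 bp long. Long fragments and fragments over an untranslated region were not eligible for printing. Longer fragments were listed at the same sites, such as 1 of 453 bp at Nrros +35.4 kb. The 154 bp Dok2 fragment held 2 RUNX and 2 ETS matches, at positions 30 and 46 and at positions 36 and 79, and the first ETS match begins at the base after the first RUNX match. Central stretches of the same length held a RUNX match in 14.5% and an ETS match in 30.7% of all 58911 distal sites. The 203 bp Nrros fragment held 1 match of each, beside 18.4% and 37.7% of sites, and the 97 bp Nrros fragment held 1 ETS match, beside 20.7%. The 3 Bmper fragments, the second Dok2 +10.2 kb fragment and the 87 bp Dok2 fragment held none of these letters. A match describes the letters only.

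Over the whole width of the sites, the 700 bp Dok2 site at +10.2 kb held 3 RUNX, 2 ETS and 1 E-box match. Stretches of that length held at least 1 such match in 46.5%, 73.6% and 40.4% of distal sites. The 567 bp Nrros site at +35.4 kb held 2 RUNX, 2 ETS and 1 E-box match, and 40.5%, 67.9% and 35.6% of sites held each of these at that length. The 741 bp Bmper site at −10.5 kb held 1 E-box and 1 TEAD match, beside 41.8% and 38.8% of sites. Outside its printed fragment, the 200 bp Bmper site at −18.6 kb held 2 ETS and 1 RUNX match, beside 37.3% and 18.1% of sites. None of the named distal sites of the 3 genes held a GATA, AP-1, SMAD, OCT or C/EBP match. At the lengths of the printed fragments, 87 to 203 bp, GATA was in 5.98 to 13.1% of distal sites and AP-1 in 5.53 to 11.7%. OCT was in 0.502 to 1.11%, SMAD in 0.104 to 0.255% and C/EBP in 0.0221 to 0.0475%. Wider stretches hold a match more often, but absence of OCT, SMAD and C/EBP was the usual case.

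Bmper was listed mainly at its own promoter and at 2 distal sites on either side of it. The promoter site (chr9:23222912-23223849, over the first coding exon and its upstream flank) had 100 listings of 46 distinct fragments, more than 68.2% of all promoter sites. Positive fragments, those in any gate above Negative, were found there in 13 of the 25 stage and replicate sets, and Negative fragments in 12. In the 5 replicates of HB, the positive sets held 9, 6, 1, 0 and 0 distinct fragments and the Negative sets 2, 6, 0, 0 and 1. The counts overlapped between the gates, and in both the deep replicates carried them. In HE1 the site had 14 positive and 7 Negative fragments, and 8 and 2 without the 4 libraries that share fragments.

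The Bmper −10.5 kb site (chr9:23212252-23212992, intergenic) overlapped an element that the study linked to the gene. It had 48 listings of 19 distinct fragments, and 94.6% of all distal sites had fewer listings. Positive fragments were listed at all 5 stages, with 2, 5, 10, 5 and 8 distinct fragments from ES to HP. The Negative lists of the same stages held 0, 0, 2, 1 and 4. Of its listings, 23 were in the High gate, 9 in Medium, 8 in Low and 8 in Negative. Without the 4 HE1 libraries, 9 positive and 1 Negative fragments were left in HE1.

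At this site the HB positive sets of replicates 1 to 5 held 1, 2, 1, 1 and 0 fragments, and all 5 Negative sets held 0. HB was its only stage with a fragment in 4 of the 5 positive sets. Depth differed, since the positive sets of replicates 3 and 4 held 37381 and 5877 fragments in HB. At the other stages they held 2308 to 29162 and 2443 to 13261. The part of depth in this was not tested. The site value, log2 of the distinct fragments per 10000 listed plus 1, was 0.42 ± 0.20 (SE) higher in positive than in Negative sets of HB (limma, adjusted p = 0.997 over 15801 sites). It did not pass the test.

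The Bmper +27.2 kb site (chr9:23250155-23250304, in an intron) was narrow and had 41 listings of only 7 distinct fragments. The fragment printed above accounted for 21 of them, and it was listed in 3 replicates and at 4 stages. Positive fragments numbered 2 in ES, 3 in HB and 5 each in HE2 and HP, and none were listed in HE1. Negative fragments followed the same stages, with 1, 2, 1 and 3, and again none in HE1. Among 405203 distinct positive fragments of HE1, a count of 0 allows up to 0.074 per 10000, beside 0.156 (95% exact interval 0.051 to 0.363) measured in HE2. Of distal sites with 20 to 60 listings, 1.46% were at 0 in HE1 alone. The cloned material of HE1 did hold the site, with 9 fragments in the pDONR list and 2 in the pSKB list. Whether a stage's lists were limited to open chromatin of that stage was not stated, and the part of such a filter in the gap was not tested.

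Further upstream, the Bmper −18.6 kb site (chr9:23204385-23204584, intergenic, also linked to Bmper by the study) had 7 listings, in ES and HB only. Its positive sets held 1 and 1 fragments in replicates 1 and 2 of ES, and 2 and 1 in those of HB. The Bmper +163.3 kb site (chr9:23386164-23386506, in an intron) had 6 listings, in HE1 and HE2 only. In HE1 it had 3 positive and 1 Negative fragments, and 2 and 0 without the 4 libraries. With counts this low, 0 at a stage is common. Of distal sites with 5 to 19 listings, 92.5% had at least 1 stage at 0. The other 7 distal sites of the window had 1 to 4 listings each.

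Nrros itself was thinly listed. Its promoter site (chr16:32165132-32165782, over the first exon) had 28 listings of 14 distinct fragments, and 37.4% of promoter sites had fewer. Positive sets of replicates 1 and 2 held 1 and 2 fragments for ES, 2 and 2 for HB, 5 and 0 for HE1, 5 and 1 for HE2, and none for HP. Replicates 3 to 5 added 1 fragment, in HE2. Negative sets held 3 distinct fragments in ES and 1 each in HB, HE1 and HE2, and none in HP. Of promoter sites with 20 to 60 listings, 7.91% were at 0 in HP and 2.34% in HP alone.

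The Nrros +35.4 kb site (chr16:32129886-32130452), intergenic and beyond the 3′ end of the gene, overlapped an element that the study linked to Nrros. All 11 of its listings, of 6 distinct fragments, were positive, 7 of them in the High gate, 2 in Medium and 2 in Low. Positive sets held 1 fragment in replicate 1 of ES, 3 in replicate 1 of HE1, 2 in replicate 2 of HE2, and 2 and 1 in replicates 1 and 2 of HP. No HB library listed it. A distal site with no Negative listing was not rare at this depth, at 12.4% of the sites with 5 to 19 listings. A second, 214 bp piece of the same region at +34.9 kb (chr16:32130539-32130752) had 2 listings, both positive.

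On the other side, the Nrros −11.6 kb site (chr16:32176958-32177338, intergenic) had 14 listings of 8 distinct fragments, 12 of them positive. Its positive sets held 4 and 1 fragments in replicates 1 and 2 of HE2, 2 and 1 in those of HE1 and of HP, and 1 in replicate 2 of ES. Without the 4 HE1 libraries, 2 of 3 positive and 0 of 1 Negative fragments were left in HE1. The nearest coding transcription start, 2675 bp from its centre, was that of Bex6 and not of Nrros.

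No distal fragment of the Nrros window was listed in HB, positive or Negative. HB listed 74491 distinct distal positive fragments, and a count of 0 among them allows up to 0.403 per 10000. At the other stages, ES had 0.397 (95% exact interval 0.048 to 1.43), HE1 had 0.793 (0.396 to 1.42), HE2 had 0.988 (0.493 to 1.77) and HP had 0.714 (0.262 to 1.55). The HB interval, 0 to 0.495, overlapped all 4, most narrowly that of HE2. These intervals cover counting error only, since the fragments were amplified by PCR.

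The bulk of the Nrros window came from promoters of other genes. The site at Fbxo45 and Wdr53 (chr16:32246685-32247597, −81.5 kb) had 151 listings, that at Pak2 (chr16:32079045-32079698, +86.2 kb) 145 and that at Pigx and Cep19 (chr16:32099059-32100164, +66 kb) 143. Fbxo45 encodes an F-box protein of a ubiquitin ligase and Pak2 a kinase activated by Rac and Cdc42. All 3 sites had positive fragments at every stage, whereas the Nrros promoter had none in HP. Window values of Nrros therefore describe mostly its neighbours.

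Dok2 had 1 distal site with most of its distal listings, and that site was absent from ES. The Dok2 +10.2 kb site (chr14:70775895-70776594) lies inside the gene, 1.9 kb downstream of the start of its coding transcript, and includes part of a coding exon. A non-coding (processed) transcript of Dok2 has its annotated start 66 bp from the centre of the site. The site is therefore distal by the study's split but not by every GENCODE transcript start. The fragments printed above overlap no coding exon. It had 53 listings of 26 distinct fragments, more than 95.4% of distal sites, and overlapped an element that the study linked to Dok2. Distinct positive fragments were absent in ES and numbered 15 in HB, 8 in both HE1 and HE2, and 7 in HP. Negative fragments numbered 0, 2, 4, 0 and 4 over the same stages.

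In HB, replicates 1 to 5 of the positive sets held 8, 5, 2, 0 and 1 fragments of this site and the Negative sets held 1, 1, 0, 0 and 0. In HE1 the positive sets held 3 and 5 in replicates 1 and 2, in HE2 7 and 2, and in HP 5 and 2, with none in replicates 3 to 5. HB was the only stage at which any of replicates 3 to 5 listed the site. The positive set of replicate 3 was deeper in HB, with 37381 fragments, than in HE1 (3865), HE2 (16669) or HP (2308). That of replicate 5 in HB held 1848. The part of depth in this was not tested. The positive value of HB was 0.578 per 10000 (95% exact interval 0.324 to 0.954), and ES, at 0 of 200086 distinct positive fragments, allows up to 0.150 per 10000. HE1 had 0.197 (0.085 to 0.389), HE2 0.249 (0.108 to 0.491) and HP 0.279 (0.112 to 0.576). The intervals of ES and HB did not overlap, while those of HB, HE1, HE2 and HP did. They pool the replicates and cover counting error only, not the spread between replicates, and most HB fragments were from replicates 1 and 2. How many other sites had separate ES and HB intervals was not counted. Without the 4 HE1 libraries, 6 positive and 1 Negative fragments were left in HE1.

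Of distal sites with 20 to 60 listings, 36.5% were at 0 in ES and 15.8% in ES alone, as this site was. The site was also less common in the cloned ES material, with 3.18 fragments per 1000000 in the pDONR list of ES, beside 9.48, 9.06, 13.3 and 17.1 from HB to HP. The pSKB lists ran the same way, from 4.13 in ES to 16.1 in HP. The part of this in the gap at ES was not tested.

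Within HB, the positive minus Negative difference at the site was 0.79 ± 0.43 (SE) on the log2 scale (limma, adjusted p = 0.997), which did not pass the test. Its listings were spread over gates, with 17 in Low, 16 in Medium, 8 in High, 1 in Medium/High and 11 in Negative. The Bmper −10.5 kb site, with 48 listings, had 23 in High. The whole screen had 452815 listings in Low, 621397 in Medium, 681814 in High and 524497 in Negative. Single libraries weighed on both sites. For Bmper, replicate 1 gave 7 of the High listings in HP and 5 in HE1. For Dok2, replicate 1 gave 5 of the Low listings in HB and 5 in HE2. The difference in gate counts between the 2 sites was not tested.

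Downstream of the gene, the Dok2 +15.2 kb site (chr14:70780894-70781611, intergenic) had 17 listings of 11 distinct fragments and was, with Bmper −10.5 kb, 1 of the 2 linked sites with positive fragments at every stage. From ES to HP they numbered 1, 2, 1, 2 and 4, beside 2, 1, 0, 0 and 2 Negative fragments. A 177 bp piece beside it, at +14.7 kb (chr14:70780659-70780835), was listed once, in HE1. The remaining 3 distal sites of the window were also listed once each.

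The promoter-class sites of the Dok2 window need care. The site at the upstream end of the gene model (chr14:70765994-70767134) had 160 listings of 81 distinct fragments, lies 7.7 kb upstream of the coding start of Dok2, and has the start of Xpo7 10 bp from its centre. Fragments there cannot be given to one of the 2 genes. Close to the coding start, 1.1 kb upstream of it, only 3 listings of 1 fragment were found (chr14:70773050-70773280). They were in the Low, Medium and High gates of ES replicate 4 alone, whose positive set held 5142 fragments.

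**Figure D2:**
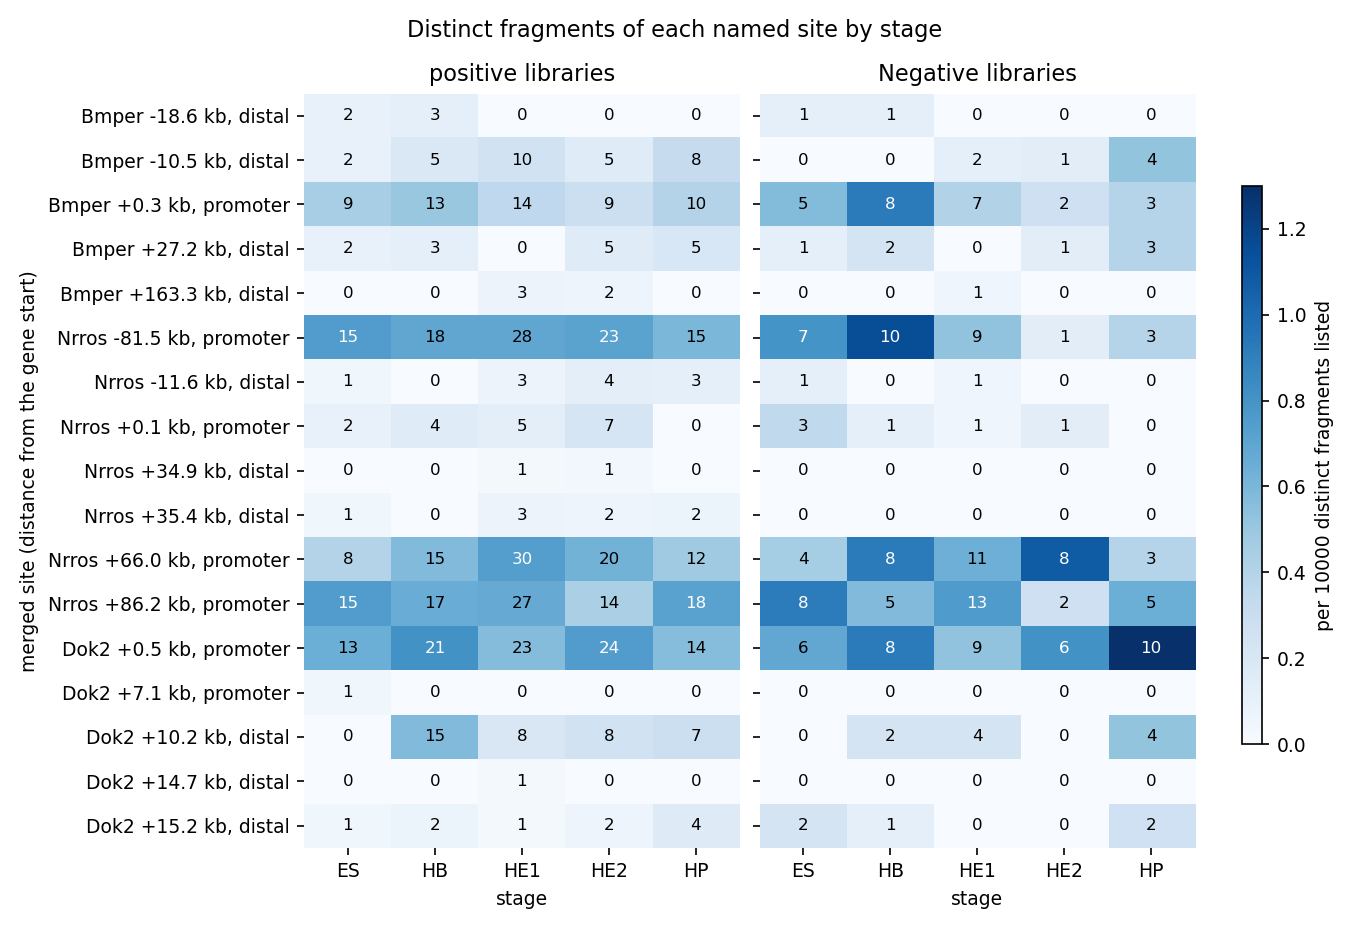
Distinct fragments of the 17 named sites (rows, by gene and distance from the gene start) at each stage (columns), in positive libraries (left) and Negative libraries (right), pooled over replicates. Numbers are counts of distinct fragments and color is the count per 10000 distinct fragments listed at that stage. The HE1 libraries that share fragments are included. Dok2 +10.2 kb is at 0 in ES and at 15 in HB, and Bmper +27.2 kb is at 0 in HE1 on both sides.

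The windows were next compared as wholes, to ask whether any of the genes was surrounded by more fragments in YFP-positive than in Negative cells. Each window value was log2 of the distinct fragments per 10000 listed plus 1. A positive set joined the libraries above Negative of 1 stage and replicate, and held 1552 to 229660 fragments, beside 720 to 131036 in a Negative set. No window of any gene passed limma at an adjusted p of 0.05 in ES, HB, HE1, HE2 or HP, which is 0% of 17791, 17983, 18039, 17654 and 17413 windows. At an unadjusted p below 0.05 there were 395, 467, 197, 246 and 336, and edgeR called 0 windows in 4 stages and 1 in HE2, none of them a member. Without the 4 HE1 libraries, 0 of 13959 windows passed limma in HE1. There, 319 had an unadjusted p below 0.05, and the lowest adjusted p was 0.060.

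For Dok2 in HB, the positive sets held 21, 15, 5, 1 and 1 fragments, which is 1.73, 1.23, 1.34, 1.70 and 5.41 per 10000. The Negative sets held 3, 8, 0, 0 and 0, which is 0.640, 1.91, 0, 0 and 0 per 10000. Every positive set held a fragment and 3 of the 5 Negative sets did not, but replicate 2 was higher in its Negative set. The mean was 1.59 ± 0.62 (SD, n = 5) in positive and 0.45 ± 0.68 in Negative sets. The difference of 1.14 ± 0.64 (SE) had an adjusted p of 0.999 by limma. An exact two-sided permutation test gave p = 0.040, and 0.595 after adjustment over the 15 gene and stage pairs. With replicates 1 and 2 only, the difference was 0.18.

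For Bmper the means of positive and Negative sets were close at every stage except HB, where they were 1.00 ± 0.77 and 1.34 ± 1.12 (SD, n = 5). The HB value of the Negative side rested on replicate 5, in which 1 fragment among 1425 gave 7.02 per 10000. In HE1, the means were 0.47 ± 0.44 and 0.31 ± 0.43. Differences ran from −0.34 in HB to 0.16 in HE1.

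For Nrros the positive minus Negative difference was below 0 in ES (−0.19) and HB (−0.26) and above 0 in HE1 (0.22), HE2 (0.59) and HP (0.94). In HP, positive sets held 31, 19, 0, 3 and 2 fragments and Negative sets 5, 4, 0, 3 and 0. The groups overlapped, and the HP difference had a SE of 0.82 (limma, adjusted p = 1.00). With only the High and Medium/High libraries as the positive side, the Nrros difference turned to −0.73 in HE1 and −0.50 in HE2. With the 4 HE1 libraries left out, the HE1 difference was 0.06 for Nrros. For Dok2 it was −0.96, against −0.44 with them, and neither passed the test. The Bmper window then had fragments in too few HE1 sets to be tested.

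**Figure D3:**
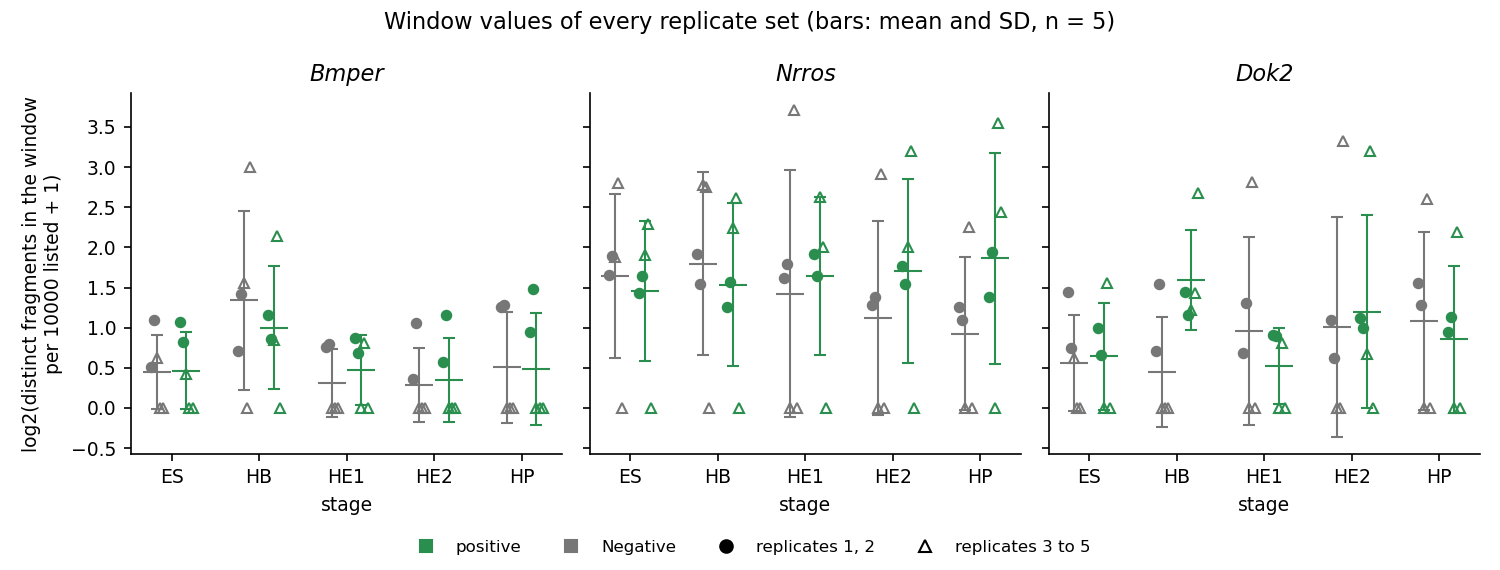
Window values, log2 of distinct fragments per 10000 listed plus 1 (y axis), of the 5 positive (green) and 5 Negative (grey) sets at each stage (x axis), with circles for replicates 1 and 2, triangles for replicates 3 to 5, and bars for the mean and SD. The groups overlap at every stage for all 3 genes, and the sets at the extremes are mostly triangles, where 1 or 2 fragments set the value.

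Across the 5 stages, none of the 3 genes passed a test on its positive sets. By limma's F test, 28 of 19117 windows passed, which is 0.146%, and no member was among them (adjusted p = 1.00 for each). The count depended on the method, with 1406 windows by edgeR and 1305 by limma on replicates 1 and 2 only, and again no member, the lowest adjusted p being 0.247 for Dok2 by edgeR. Without the 2 positive HE1 libraries that share fragments, 24 passed. Contrasts of neighbouring stages called 0% for HB minus ES, HE1 minus HB and HE2 minus HE1 and 0.0157% for HP minus HE2. There were 531, 676, 605 and 970 windows at an unadjusted p below 0.05. The mean of the positive sets of Dok2 ran, from ES to HP, 0.64, 1.59, 0.52, 1.20 and 0.86, and the SDs were 0.67, 0.62, 0.48, 1.20 and 0.91. HB was the highest for Dok2. Its 5 HB sets ran from 1.16 to 2.68 and its 5 HE1 sets from 0 to 0.90, and the HB sets overlapped those of the other stages. This pair of stages was picked from the values, and how many other windows separated so was not counted. The highest HB set had 1 fragment among 1848, and the HE1 sets at 0 listed only 3865 and 2655 fragments. The HE1 minus HB difference of −1.07 ± 0.53 (SE) had an adjusted p of 1.00 by limma, in the contrast that called 0% of windows. For Bmper the order was HB, HP, HE1, ES and HE2, from 1.00 down to 0.35. For Nrros it was HP, HE2, HE1, HB and ES, from 1.86 down to 1.45, with SDs of 0.87 or more.

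Pooled over replicates, and so corrected for the fragments of each stage, the positive window values of Bmper stayed between 0.716 per 10000 in HE2 and 0.998 in HP. Those of Nrros stayed between 2.08 in HP and 2.49 in HE1. Dok2 ranged from 0.750 (95% exact interval 0.420 to 1.24) in ES to 1.5 (1.07 to 2.06) in HB, and the intervals overlapped. Of distal fragments alone, the Dok2 window had 0.198 (0.0050 to 1.11) per 10000 distal fragments in ES and 2.42 (1.43 to 3.82) in HB, and most of those in HB were of the +10.2 kb site.

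Reporter strength, read as the gate, separated none of the genes. The high sets of each stage and replicate (Medium, High and Medium/High) were compared with the Low sets, with stage as a covariate. The fit took the 50 sets as independent. High and Low sets of 1 stage and replicate, and sets of 1 replicate number at different stages, may not be, so the SEs are approximate. With replicate as a further covariate, 0 windows passed. No window passed among 19195 (0%), 658 had an unadjusted p below 0.05, and edgeR called 1. The high minus low difference was 0.08 ± 0.17 (SE) for Bmper, −0.05 ± 0.35 for Nrros and 0.20 ± 0.27 for Dok2, each with an adjusted p of 1.00. In listings per 10000, Bmper went from 0.795 in Low through 0.917 in Medium to 1.10 in High, with 0.877 in Negative. Nrros had 2.3, 2.43 and 2.05, with 2.12 in Negative. Dok2 had 1.06, 0.949 and 1.06, with 1.09 in Negative. The Medium/High gate of replicate 5 listed 0 fragments of the first 2 windows and 1 of Dok2 among 7249.

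Single sites were tested in the same way. From ES to HP, the test could be run on 6, 8, 7, 6 and 8 sites of the 3 windows, since the others had a fragment in fewer than 4 of the 10 sets. No site of the genome passed in any stage (0% of 13724, 15801, 17808, 13141 and 11711 sites), with 222, 223, 29, 48 and 71 at an unadjusted p below 0.05. EdgeR also called 0 sites at each stage. Unlike the window test, this one could read the own promoter of Nrros apart from its neighbours. Its difference was −0.13 ± 0.14 (SE) in ES and 0.15 ± 0.15 in HE2.

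The plasmid lists show how the 3 loci were represented before integration. They hold the fragments cloned from the open chromatin of each stage into pDONR and then into the reporter vector pSKB, with 1302941 to 8832923 fragments a list. Together they held 4752 distinct fragments of the Bmper window, 6175 of the Nrros window and 3532 of the Dok2 window. Per 1000000 fragments of a list, the Bmper window had 110 to 176, with the highest value in HB material in both vectors. The Nrros window had 164 to 204, and the Dok2 window 81.9 to 123, highest in HP material in both vectors. With 1 list per vector and material there is no replicate for these values.

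**Figure D4:**
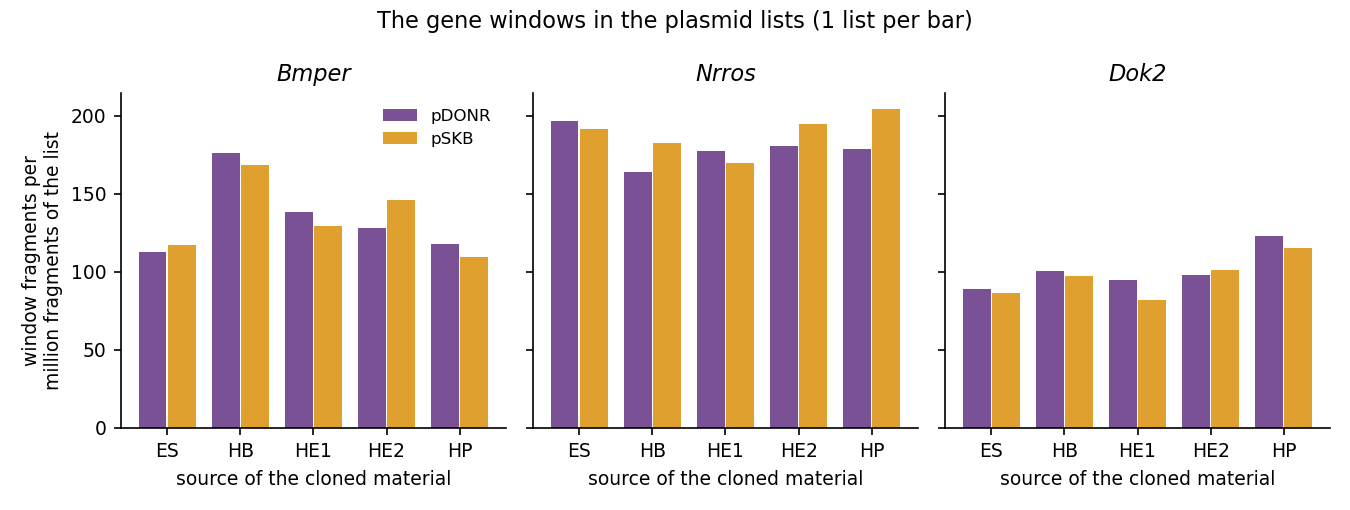
Distinct fragments of each gene window per 1000000 fragments of the list (y axis) in the 5 pDONR and 5 pSKB lists, by the stage that gave the cloned chromatin (x axis), with 1 list per bar and no error. Bmper is highest in HB material (176 and 169) and Dok2 in HP material (123 and 115), in both vectors.

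Of the distinct sorted fragments, 90.0% around Bmper, 81.5% around Nrros and 73.2% around Dok2 were identical to a plasmid fragment, beside 80.5% in the whole screen. The remaining 9, 48 and 33 fragments had no identical plasmid fragment. Fragments from the material of any stage were listed. Around Dok2, 13% of the distinct sorted fragments were found in ES material, 8.13% in HB material and 9.76% in HP material, beside 28.5% and 25.2% in that of HE1 and HE2. In the whole screen, the shares of ES, HB and HP material were 14.3%, 7.70% and 9.42%, and those of HE1 and HE2 material 39.1% and 27.9%. The share of HE1 material was 25.6% (95% exact interval 16.9 to 35.8) around Bmper and 28.5% (20.7 to 37.3) around Dok2, both below the 39.1% of the whole screen, and 35.9% (30.1 to 42.1) around Nrros. That of HE2 material was 35.6% (25.7 to 46.3) around Bmper. The printed Bmper −10.5 kb fragment came from ES material and was listed at 4 stages, and the printed Bmper +27.2 kb fragment was in HE1 and HE2 material yet listed in no HE1 library.

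Recovery, the share of plasmid fragments over a site that reached a sorted list, was low everywhere. It was 5.31% (81 of 1526; 95% exact interval 4.24 to 6.55) over the Bmper sites, 5.87% (211 of 3597; 5.12 to 6.68) over the Nrros sites and 5.99% (90 of 1502; 4.85 to 7.31) over the Dok2 sites. Pooled over the genome it was 5.86% for distal and 5.88% for promoter sites, with a median of 4.76% over distal sites that had 20 or more plasmid fragments. The sites are made of listed fragments, so a site without recovery could hardly enter.

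Many of the named sites were named for being listed in the most sets, which favors recovered sites, so their recovery is a description. At Bmper −10.5 kb, 18 of 165 plasmid fragments were recovered, 10.9% (6.59 to 16.7), and the upper quartile of distal sites was 7.22%. At Bmper +27.2 kb it was 6 of 47, 12.8% (4.83 to 25.7), an interval that holds the pooled share. At Dok2 +10.2 kb, 20 of 375 were recovered, 5.33% (3.29 to 8.12). At Nrros +35.4 kb, 6 of 87 were recovered, 6.90% (2.57 to 14.4).

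**Figure D5:**
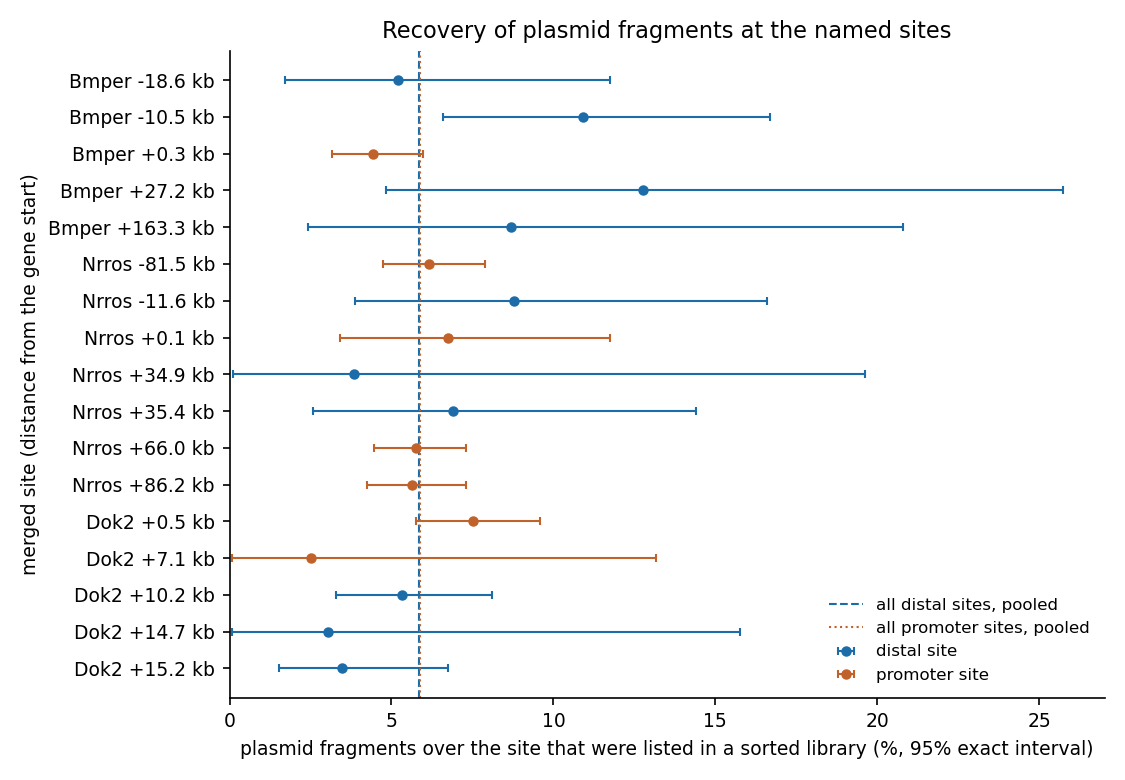
Share of distinct plasmid fragments over each named site that were listed in a sorted library (x axis, percent, with 95% exact intervals) for the 17 named sites (y axis, distance from the gene start), with the pooled shares of all distal (dashed) and promoter (dotted) sites. Bmper −10.5 kb, at 10.9%, is the named site whose interval lies above the pooled share, and Bmper +0.3 kb has an interval that just reaches it.

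The controls, 3 PCR lists from HM-1 cells without a reporter library, held 2 fragments of the Bmper window, 4 of the Nrros window and 2 of the Dok2 window. Of these, 6 lay outside every merged site. The other 2 each had 1 read, 1 at the Pigx and Cep19 promoter and 1 at the site shared by Dok2 and Xpo7, and were identical to sorted fragments with 4 and 7 listings. No control fragment overlapped a named distal site.

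Genes that work with the 3 members were read in the same fits. Of 21 BMP ligands, receptors and extracellular modulators, such as Bmp4, Bmpr2, Nog and Chrd, 16 to 19 windows could be tested per stage and none passed. Their median positive minus Negative difference was 0.10, 0.22, 0.07, 0.41 and 0.22 from ES to HP. The medians over all windows were 0.17, 0.16, 0.13, 0.25 and 0.08. Of 20 genes of TGF-beta activation and NADPH oxidase, such as Tgfb1, Ltbp1, Itgb8 and Cybb, 18 or 19 could be tested and none passed, with medians from 0.06 in HB to 0.41 in HE1. Of 16 genes of the DOK family and its partners, such as Dok1, Tek, Kit and Rasa1, 14 to 16 could be tested and none passed, with medians from −0.05 in HE1 to 0.27 in HP. None of the 3 lists had a member past the F test over stages or past the comparison of high with low gates.

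Over the 25 positive sets, the windows most like that of Bmper were those of Olr1, Tmem52b and BC005561 (Pearson r of 0.93 for each, among 19116 windows, median 0.22). Most like Nrros were Hrk, 3110009E18Rik and Syn2 (0.94, 0.93 and 0.93, median 0.08). Most like Dok2 were Exoc4, Tcf20 and Gsg1l2 (0.91, 0.88 and 0.87, median −0.03). The points are sets that share their libraries and depth among all windows, and the shallow sets, in which 1 fragment gives a high value, weigh on r.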

How the data were processed

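Sorted fragments from 95 libraries, 10 plasmid lists and 3 control lists were used. According to the methods and the labels, the authors combined 2 sequencings, trimmed reads with Trim Galore, mapped them to mm10 with Bowtie2, filtered with SAMtools and bedtools, removed duplicates and kept fragments absent from the controls, present in the plasmids and within open chromatin, split at 1.5 kb from a transcription start. The sorted lists were deposited as intervals without values. At identical coordinates they did not fully meet these filters, since 80.5% of their distinct fragments were identical to a plasmid fragment. Control fragments at the Pigx and Cep19 promoter and at the site shared by Dok2 and Xpo7 were also identical to sorted ones. The reason was not tested. The plasmid and control lists were deposited by the authors with a raw count of reads per fragment.

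Sorted starts were moved by 1 bp, after which 83.5% of listings were identical to a plasmid fragment (3.73% as deposited). Coordinates are counted from 1, and 1042 of 2288814 listings lay off the 22 chromosomes used. Windows and sites with a fragment in at least 4 sets were fitted with limma 3.58.1 (lmFit, eBayes with trend; R 4.3.3) on log2(fragments per 10000 listed + 1) with Benjamini-Hochberg adjustment over all windows or sites. Single windows of the 3 genes were also compared by exact two-sided permutation tests over 252 arrangements, whose smallest p is 0.00794. Exact Clopper-Pearson intervals are at 95%, and a limit for 0 is 3 counts of the total. edgeR 4.0.16 quasi-likelihood tests, other filters, flanks, scalings and left-out replicates were alternatives. Scripts were tested on simulated data. The precision is set by the number of fragments listed, 504 to 131091 a library.

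The named sites were, per window, the 5 positive in most of the 25 sets and every site over an element the study linked to the gene. The members, lists and tests were chosen with earlier results of these data known. Fragments shared by 4 HE1 libraries were kept in the main values.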

Additional observations from a re-analysis of the deposited data

Results flagged for a closer look

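In 30 groups of 5 replicate sets (3 genes, 5 stages, positive and Negative), 1 sample lay far from the others by Dixon's criterion, which chance exceeds in about 1 of 20 groups. It was the Dok2 window in positive HB cells of replicate 5, at 2.68 on the log2 scale, where the 2 libraries listed 1848 fragments and 1 of them was in the window. The positive minus Negative difference of Dok2 in HB was 1.14 with this replicate and 0.75 without it, and it passed the limma test in neither case.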

How the results depend on the processing

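For the 3 genes, 21 window results were recomputed under 275 alternatives; none passed an adjusted p of 0.05 in any of them, the lowest being 0.247 (Dok2 over stages, edgeR). Among the signed differences, 22 of these values changed sign. With High and Medium/High libraries as the positive side, ES Bmper was −0.014, HE1 Bmper −0.030, HE1 Nrros −0.73, HE2 Nrros −0.50 and HE2 Dok2 −0.59. With edgeR, ES Dok2 was −0.33, HE1 Dok2 0.017 and high minus low of Dok2 −0.058. With replicates 1 and 2 only, ES Dok2 was −0.26 and high minus low of Nrros 0.23. With distal fragments only, HB Bmper was 0.57 and high minus low of Nrros 0.19, which was 0.025 with 0.25 added in place of 1 and 0.10 with 50 kb flanks. High minus low of Dok2 was −0.065 without Medium. Leaving out each replicate gave −0.11 to 0.091 for ES Bmper, −0.29 to 0.26 for ES Dok2, −0.96 to 0.33 for HB Bmper, −0.39 to 0.70 for HE1 Nrros, −0.56 to 1.07 for HE2 Dok2 and −0.18 to 0.11 for high minus low of Nrros.

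Counts of windows passing the test went from 0 to 1 in ES and HB without replicate 4, in HE2 with edgeR or without replicate 3, in HP without replicate 1, 2 or 5, and for the gates with edgeR. Over leave-one-out fits the range was 0 to 1 in ES, HB, HE2 and HP. Over stages, 28 windows became 1406 with edgeR, 1305 with replicates 1 and 2 only, 11 with distal fragments only, and 15 to 42 over leave-one-out fits. The cause was not tested. The replicate block gave 41 windows over stages and changed no other call. Same-numbered positive and Negative sets correlated above 0.1 over sites in all 5 pairs in ES, HB and HE2, and in 4 in HE1 and HP. Over windows, 4 of the 5 pairs did so in ES, HB, HE1 and HE2, and 2 in HP. The main fits did not use this pairing. Sites with at least 2 distinct fragments numbered 7 for Bmper, 8 for Nrros and 3 for Dok2, in place of 12, 14 and 8. Recovery was 10.5%, 11.7% and 12.2% of pSKB fragments alone, and 9.63%, 15% and 13.8% when starts and ends could differ by 5 bp. Shallow replicates limit all of this, since 1 fragment sets their value.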
